A study of Mus musculus with 12 samples.

Results

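The 49 genes described here are the Wnt ligands, receptors and antagonists among the 24421 genes of the deposited expression table. They were chosen by gene symbol alone: 19 Wnt ligands, 4 R-spondins, 10 Frizzled receptors, the 2 co-receptors Lrp5 and Lrp6, 5 genes of the secreted Frizzled-related type (Sfrp1, Sfrp2, Sfrp4, Sfrp5 and Frzb), 4 Dickkopf genes, the antagonists Sost and Wif1, and the 3 pathway genes Axin2, Lef1 and Tcf7. RNA was sequenced in bulk from 3 groups of mouse libraries, all freshly isolated. There were 3 libraries of p53 wild-type mesenchymal stem cells (WT MSC), 3 of p53 knockout mesenchymal stem cells (KO MSC) and 6 of sarcomas that arose in the bone or marrow of p53 knockout mice. The MSCs were sorted from bone marrow as LepR+ and CD140a+ and as negative for CD45, Ter119 and CD31, whereas no sort is described for the tumors, whose labels name the cell type as tumor cell. The sources used here do not state strain, age, the form of the p53 allele or any Cre driver. Nor do the labels say which libraries came from separate mice, so every p-value reflects spread among libraries that may be technical in origin.

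Wnt proteins are secreted lipid-bearing ligands that bind a Frizzled receptor and, for the branch that works through beta-catenin, the co-receptors Lrp5 and Lrp6. Stabilized beta-catenin enters the nucleus and acts with factors of the TCF and LEF family, and Axin2 is a feedback gene that this branch commonly switches on. R-spondins strengthen the signal by keeping Frizzled receptors at the cell surface. Sfrp proteins, Frzb and Wif1 bind Wnt ligands outside the cell, and Dkk1 and sclerostin (Sost) block Lrp5 and Lrp6. In bone the pathway is known for driving osteoblast formation, and its inhibitors limit bone mass.

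Values are the authors' stabilized log2 values, which track log2 expression where a gene is well expressed and level off at a floor where reads are scarce. The depth of the libraries is unknown. Exactly shared floor values divide the libraries into 2 sets. WT_MSC 1, the library labelled KO_MSC 1 and tumors 1 to 3 form set 1, and the other libraries form set 2. A gene without signal can have different floors in the sets, so a value is called at the floor here only against its own set. Trp53, the gene for p53, was at 9.96, 10.04 and 10.61 in the 3 WT MSC libraries and at 6.79 to 9.16 in the tumors. In the group labelled knockout it stood at 10.49 and 9.76 in libraries 1 and 2, within or just below the WT MSC range, and at 6.96 in library 3. That last library also had the most genes at the floor, 12398, followed by the library labelled KO_MSC 2 with 11254. The libraries far from the rest were the one labelled KO_MSC 1 (2642) and WT_MSC 1 (3736), both of set 1. The remaining libraries had 9277 to 11254. Of the genes described here, 1 was at the floor in KO_MSC 1 and 3 in WT_MSC 1, against 12 to 25 in each other library. A gene-level value does not show which part of Trp53 was read. Whether libraries 1 and 2 lack p53 is therefore unknown. None of 8 stromal identity genes, Lepr and Pdgfra among them, was at the floor in any library, and their mean level was 12.59 to 13.63 in WT MSC, 11.34 to 12.10 in the libraries labelled KO MSC and 6.74 to 8.99 in tumors. Genes of cell types that the gate should remove were present in the MSC libraries too. Mean levels of 6 neutrophil genes were 7.44 to 11.11 in WT MSC, 8.64 to 12.99 in the libraries labelled KO MSC and 5.55 to 8.06 in tumors, and those of 6 erythroid genes were 9.78 to 11.01, 10.88 to 12.78 and 6.78 to 10.84.

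Rspo2, Fzd1 and Sfrp4 fell in tumors against both WT MSC and the libraries labelled KO MSC. Rspo3, Fzd4, Fzd7, Fzd9, Sfrp1 and Wnt5b passed as lower and Fzd6 as higher against WT MSC only. Wnt5a passed as higher against the libraries labelled KO MSC only. Here "only" means the side of the threshold, as no difference between the comparisons was tested. Of the 49 members 42 could be tested, and 11 passed in at least 1 of the comparisons of tumors with MSCs (adjusted p under 0.05, limma). In tumors against the libraries labelled KO MSC 1 member was higher and 3 were lower, which is 9.52% of the 42, while 4.98% of all 18948 genes passed. In tumors against WT MSC 1 was higher and 9 were lower, 23.8% of the 42, while 21.3% of all genes passed, so the share of members called was near that of all genes. By direction, 2.7% of all genes were called higher and 2.28% lower in the first comparison, and 10.4% and 10.9% in the second. Tumors did not overlap the libraries labelled KO MSC in 3 members that were higher and 8 that were lower (8% and 5.39% of all genes), nor WT MSC in 3 and 9 (12.9% and 12.3%). The median log2 difference of the 42 members was 0.18 against the libraries labelled KO MSC and 0.09 against WT MSC, where all genes tested had medians of 0.04 and -0.06. The second member median was below 0 in some alternatives. The 2 comparisons share the 6 tumors, and 3 members (Rspo2, Sfrp4 and Fzd1) passed in both. In bulk libraries, fewer cells that express a gene and less RNA per cell cannot be told apart.

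**Figure D1:**
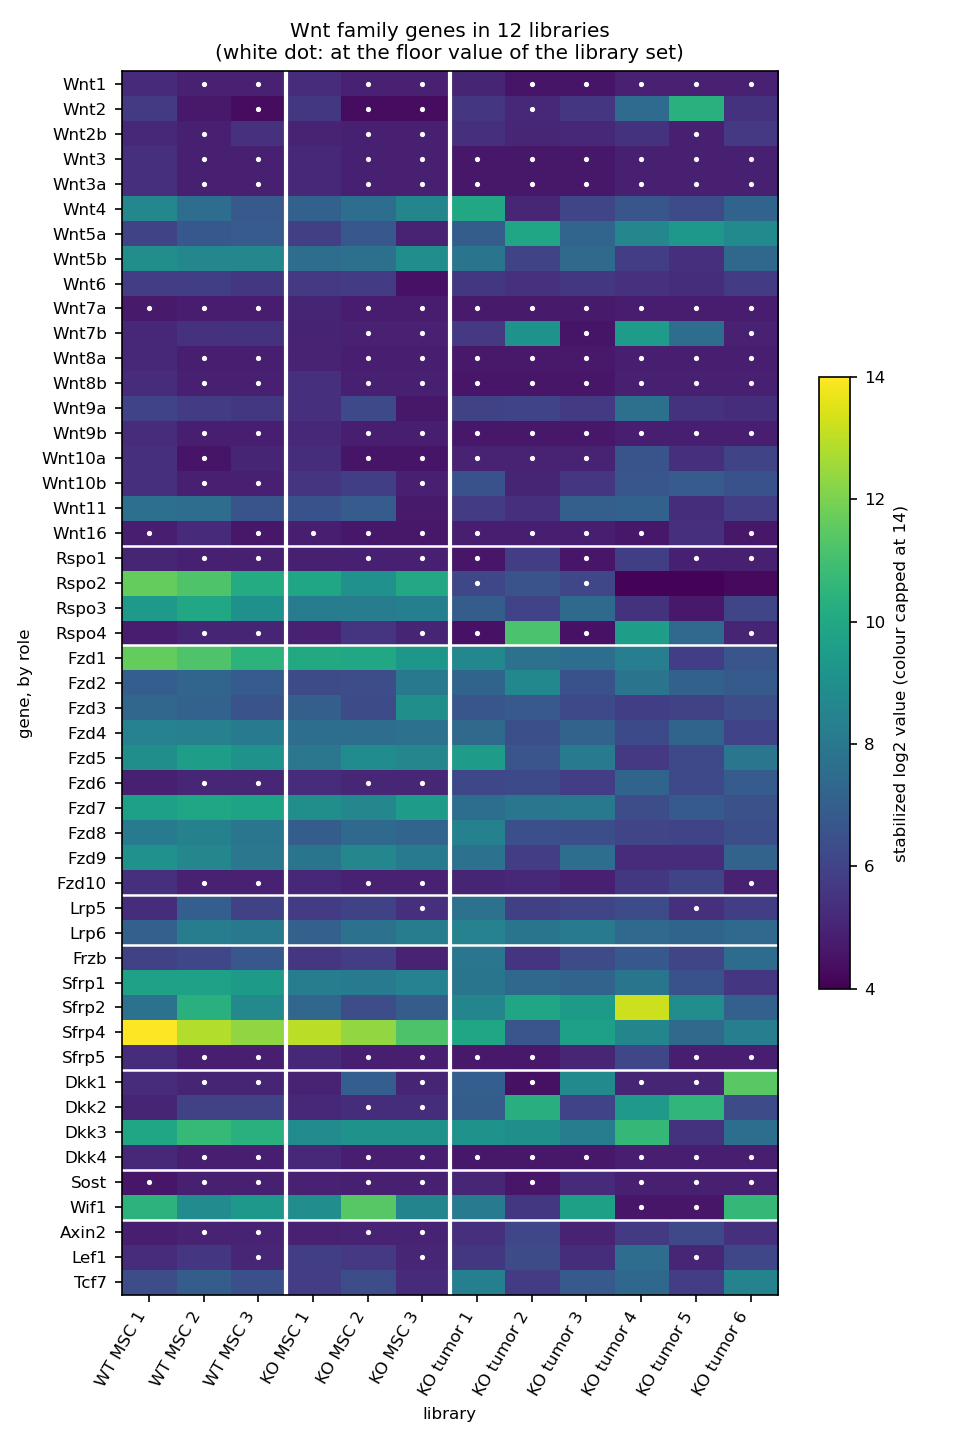
Stabilized log2 value (colour) of each of the 49 genes (rows, by role) in each of the 12 libraries (columns), with a white dot where a value is at the floor of its library set. The colour scale stops at 14. Rspo2, Rspo3, Fzd1, Fzd7, Sfrp1 and Sfrp4 are brighter in each of the 6 MSC libraries than in any tumor, and Rspo4, Wnt7b and Dkk2 are bright in tumors 2, 4 and 5.

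Among the R-spondins, Rspo2 (chromosome 15, 43020794 to 43170826) had the largest fitted difference of all members in both tumor comparisons. Within set 1 that of Sfrp4 was larger: -6.53 against -5.37 for Rspo2 from WT MSC, and -4.23 against -3.63 from the library labelled KO_MSC 1. The value of Rspo2 was 11.62, 11.23 and 10.16 in WT_MSC 1 to 3 and 9.89, 9.05 and 10.04 in the 3 libraries labelled KO MSC. In tumors 1 to 6 it was 6.11, 6.54, 6.11, 4.09, 4.10 and 4.27. No tumor came near an MSC library. The floor of Rspo2 is 6.11 in set 1, which holds tumors 1 to 3, and 3.39 in set 2, which holds tumors 4 to 6. Tumors 1 and 3 were at the floor and the other 4 were less than 1 unit above it. Rspo2 fell by 5.80 ± 0.66 in tumors against WT MSC (SE, n = 3 and 6; adjusted p = 0.00102, limma) and differed by -4.45 ± 0.66 from the libraries labelled KO MSC (adjusted p = 0.00524, limma). The second difference was -5.39 within set 2, and the fitted means combine tumors of both floors. With both knockout-labelled libraries of high Trp53 left out, it was -4.84 but did not pass (adjusted p = 0.0844, limma).

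Rspo3 (chromosome 10, 29452416 to 29535867), a second R-spondin, was at 9.40, 9.98 and 9.01 in the 3 WT MSC libraries and at 8.20, 8.21 and 8.30 in the 3 libraries labelled KO MSC. Tumors lay between 4.69 and 7.43 with a median of 6.05, below every MSC library. Rspo3 fell by 3.35 ± 0.56 against WT MSC (SE, n = 3 and 6; adjusted p = 0.00281, limma), and its difference of -2.13 ± 0.58 against the libraries labelled KO MSC did not pass (adjusted p = 0.0575, limma). That difference also did not pass in 15 of 20 alternatives. It passed in 5, among them without tumor 3 (-2.39, adjusted p = 0.0429, limma) and with library set as a term (-2.28, adjusted p = 0.0451, limma). An antisense gene shares 13.1% of its exon bases, and the library kit does not mark strand. Rspo1 was at the floor in 8 of the 12 libraries and reached at most 5.87. Rspo4, described with the single tumors below, was at or near the floor in all MSC libraries.

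Of the 10 Frizzled receptor genes, 4 fell and 1 rose in tumors against WT MSC, and 1 fell against the libraries labelled KO MSC. Fzd1 (chromosome 5, 4753839 to 4758035) was at 11.63, 11.24 and 10.46 in the 3 WT MSC libraries and at 10.09, 10.01 and 9.30 in the 3 libraries labelled KO MSC. Tumors lay between 5.86 and 8.66 (median 7.69), so the 3 groups did not overlap. Fzd1 fell by 3.64 ± 0.58 against WT MSC (SE, n = 3 and 6; adjusted p = 0.00243, limma) and differed by -2.33 ± 0.59 from the libraries labelled KO MSC (adjusted p = 0.0453, limma). The second call was lost when the library labelled KO_MSC 1 was left out (-2.18, adjusted p = 0.205, limma), as it was for KO_MSC 2 (-2.22, adjusted p = 0.141, limma) or both (-1.83, adjusted p = 0.375, limma), and for tumor 2, 3, 5 or 6.

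Fzd7 (chromosome 1, 59482424 to 59486955) was at 9.65, 9.87 and 9.82 in the 3 WT MSC libraries and at 8.92, 8.62 and 9.51 in the 3 libraries labelled KO MSC. Tumors lay between 6.35 and 8.04 (median 7.23), below every MSC library. It fell by 2.57 ± 0.44 against WT MSC (SE, n = 3 and 6; adjusted p = 0.00294, limma), while -1.81 ± 0.49 against the libraries labelled KO MSC did not pass (adjusted p = 0.0581, limma). Fzd4 (chromosome 7, 89404355 to 89413134), which is also the receptor for norrin in blood vessels, was at 8.43, 8.36 and 8.18 in WT MSC, at 7.63, 7.58 and 7.76 in the libraries labelled KO MSC and between 6.0 and 7.47 (median 6.81) in tumors. Its fall of 1.56 ± 0.39 against WT MSC (SE, n = 3 and 6; adjusted p = 0.0174, limma) went together with a rise of endothelial markers: 6 of 7 rose in that comparison, and their mean level was 4.94 to 5.54 in WT MSC and 6.46 to 8.83 in tumors. The part of vessels in the Fzd4 value was not tested. Fzd4 did not pass without any 1 of the WT MSC libraries (adjusted p = 0.0569 to 0.0788, limma).

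Fzd9 (chromosome 5, 135248938 to 135251230), a receptor known to act in osteoblasts, was at 9.05, 8.62 and 7.97 in WT MSC, at 7.89, 8.61 and 8.11 in the libraries labelled KO MSC and between 5.27 and 7.77 (median 6.50) in tumors. The tumors were lower than all MSC libraries but spread widely. Its fall of 2.06 ± 0.64 against WT MSC (SE, n = 3 and 6; adjusted p = 0.0414, limma) was lost without WT_MSC 1, 2 or 3 and without tumor 2, 4 or 5 (adjusted p = 0.0534 to 0.169, limma).

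Fzd6 (chromosome 15, 39006034 to 39038188) was the Frizzled gene with the opposite direction. It is known from planar cell polarity, the branch that orients cells without beta-catenin. It was at the floor (5.06) in all 4 MSC libraries of set 2. In set 1, whose floor differs, it was at 4.88 in WT_MSC 1 and 5.28 in the library labelled KO_MSC 1. In tumors it was at 6.19, 6.23, 5.83, 7.23, 6.21 and 6.91, above the floor in all 6. Fzd6 rose by 1.43 ± 0.33 against WT MSC (SE, n = 3 and 6; adjusted p = 0.0114, limma). This call was lost without WT_MSC 1 (1.37, adjusted p = 0.0637, limma), with set 2 only and with replicate number as a block. Its difference of 1.30 ± 0.38 against the libraries labelled KO MSC did not pass (adjusted p = 0.0695, limma). On a stabilized scale a change from the floor is understated.

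The other Frizzled genes and both co-receptors did not pass. Fzd5 was at 8.99, 9.62 and 9.14 in WT MSC, 7.97, 8.86 and 8.63 in the libraries labelled KO MSC and 5.66 to 9.54 (median 7.29) in tumors. Fzd8 was at 8.10, 8.38 and 7.94 in WT MSC, 6.97, 7.40 and 7.25 in the libraries labelled KO MSC and 6.0 to 8.41 (median 6.41) in tumors. An antisense gene shares 17.8% of the exon bases of Fzd5. Tumor 1 had the highest value of both genes among tumors, within the WT MSC range of Fzd5 and above that of Fzd8. Fzd2 lay between 6.28 and 8.65 and Fzd3 between 5.85 and 8.98 over all 12 libraries, and Fzd10 was at the floor in 5 of them. Lrp6 lay between 7.07 and 8.43 with group means of 7.80 in WT MSC, 7.69 in the libraries labelled KO MSC and 7.74 in tumors. Lrp5 had group means of 6.08, 5.71 and 6.21.

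**Figure D2:**
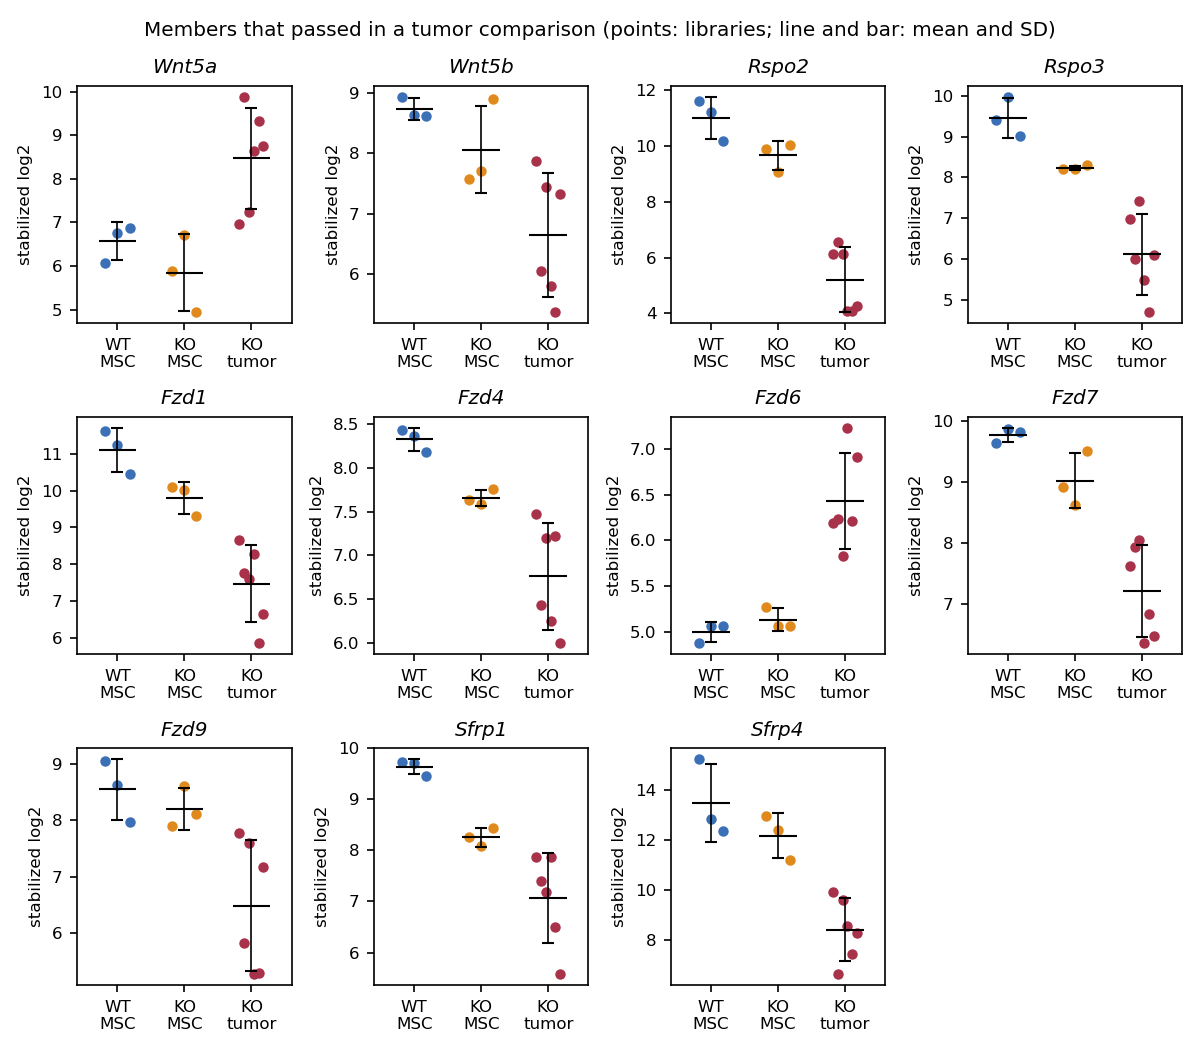
Stabilized log2 values (vertical axis, range set for each gene) of the 11 members that passed in a comparison of tumors with MSCs, 1 point per library, with the mean and SD of each group. Of the 11 genes, Wnt5a and Fzd6 are higher in tumors and the other 9 are lower, and the groups of tumors and WT MSC do not overlap in any of them.

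Among the 19 Wnt ligand genes, 13 could be tested. Wnt5a rose against the libraries labelled KO MSC only, and Wnt5b fell against WT MSC only, with no test of the difference between these genes or comparisons. Wnt5a (chromosome 14, 28504750 to 28527448) encodes a ligand known mainly for signaling without beta-catenin. It was at 6.07, 6.76 and 6.87 in WT_MSC 1 to 3, at 5.88, 6.71 and 4.94 in the 3 libraries labelled KO MSC, and at 6.96, 9.89, 7.25, 8.63, 9.34 and 8.77 in tumors 1 to 6. Every tumor was above every MSC library, tumors 1 and 3 by little. Wnt5a rose by 2.63 ± 0.68 against the libraries labelled KO MSC (SE, n = 3 and 6; adjusted p = 0.0496, limma), but its difference of 1.91 ± 0.62 against WT MSC did not pass (adjusted p = 0.0509, limma). Both values lie beside the threshold, and an antisense gene shares 4.58% of the exon bases of Wnt5a. The first call was lost without any 1 of the libraries labelled KO MSC or of tumors 2, 4, 5 and 6, with a range of 2.17 to 3.06 and of adjusted p = 0.0726 to 0.186 (limma), and with library set as a term (2.73, adjusted p = 0.0674, limma). In that last fit the difference from WT MSC passed (2.05, adjusted p = 0.0475, limma), as it did without tumor 1 (2.21, adjusted p = 0.019, limma) or tumor 3 (2.15, adjusted p = 0.0356, limma).

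Wnt5b (chromosome 6, 119432531 to 119544347) was at 8.93, 8.63 and 8.62 in WT MSC, at 7.58, 7.71 and 8.89 in the libraries labelled KO MSC and between 5.37 and 7.87 (median 6.69) in tumors. The tumors overlapped the libraries labelled KO MSC but not WT MSC. It fell by 2.08 ± 0.56 against WT MSC (SE, n = 3 and 6; adjusted p = 0.0237, limma), a call lost without any 1 of the WT MSC libraries (adjusted p = 0.0735 to 0.102, limma). Against the libraries labelled KO MSC it did not pass (-1.41 ± 0.63, adjusted p = 0.181, limma).

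The remaining ligands did not pass. Wnt4, which acts in kidney and gonad development, had group means of 7.66 in WT MSC, 7.75 in the libraries labelled KO MSC and 6.89 in tumors, with tumor 1 at 10.00 and tumor 2 at 5.06. Wnt11 had means of 7.28, 6.06 and 6.07. Wnt6, Wnt9a, Wnt10a, Wnt10b, Wnt2b, Wnt1 and Wnt16 had group means between 4.72 and 6.20. The ligands known best for beta-catenin signaling in development, Wnt1, Wnt3 and Wnt3a, were at the floor in 9, 10 and 10 of the 12 libraries. Wnt3, Wnt3a, Wnt7a, Wnt8a, Wnt8b, Wnt9b and the antagonist gene Dkk4 are the 7 members that were not tested, since the authors' second table, which served as the filter on low values, does not list them. Each was at the floor in all 6 tumors.

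Of the 5 Sfrp antagonists, Sfrp4 and Sfrp1 fell against WT MSC, Sfrp4 also against the libraries labelled KO MSC, and the other 3 passed in neither comparison. Sfrp4 (chromosome 13, 19623104 to 19632994), a secreted Wnt-binding protein whose loss in humans gives a disorder of bone shape, was at 15.26, 12.86 and 12.35 in the 3 WT MSC libraries and at 12.95, 12.39 and 11.22 in the 3 libraries labelled KO MSC. In tumors 1 to 6 it was at 9.92, 6.64, 9.63, 8.58, 7.45 and 8.28, below all MSC libraries. It fell by 5.08 ± 0.80 against WT MSC (SE, n = 3 and 6; adjusted p = 0.00233, limma) and differed by -3.77 ± 0.70 from the libraries labelled KO MSC (adjusted p = 0.0141, limma). Leaving out the library labelled KO_MSC 1 ended the second call (-3.39, adjusted p = 0.108, limma), as did leaving out KO_MSC 2 (-3.67, adjusted p = 0.0559, limma) or both (-2.80, adjusted p = 0.237, limma).

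Sfrp1 (chromosome 8, 23411502 to 23449632), a member of the same family, was at 9.74, 9.72 and 9.46 in WT MSC, at 8.25, 8.08 and 8.44 in the libraries labelled KO MSC and between 5.57 and 7.88 (median 7.29) in tumors. The 3 groups did not overlap. It fell by 2.57 ± 0.49 against WT MSC (SE, n = 3 and 6; adjusted p = 0.00518, limma), and the difference of -1.19 ± 0.54 against the libraries labelled KO MSC did not pass (adjusted p = 0.185, limma). Sfrp2 (chromosome 3, 83766321 to 83774316) was at 7.77, 10.34 and 8.70 in WT MSC, at 7.29, 6.35 and 6.97 in the libraries labelled KO MSC and at 8.56, 9.89, 9.46, 13.22, 8.92 and 7.05 in tumors 1 to 6. Its differences of 2.65 ± 1.01 from the libraries labelled KO MSC (SE, n = 3 and 6; adjusted p = 0.145, limma) and of 0.58 ± 1.09 from WT MSC (adjusted p = 0.729, limma) did not pass. Tumor 4, with the highest Sfrp2, also had the highest means of macrophage markers (14.87) and skeletal muscle markers (14.26) of the tumors, and the part of these cells in its value was not tested. An antisense gene shares 16.1% of the exon bases of Sfrp2. Sost, the sclerostin gene of osteocytes, was at the floor in 9 of the 12 libraries and reached at most 5.21. Frzb had group means of 6.27, 5.48 and 6.68, and Sfrp5 was at the floor in 8 libraries.

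The lower values of Rspo2, Rspo3, Fzd1, Fzd7, Sfrp1 and Sfrp4 in tumors against WT MSC went together with lower stromal identity genes, of which 8 of 8 fell in that comparison and 5 of 8 against the libraries labelled KO MSC. Macrophage markers rose in both comparisons in 8 of 8 genes, with mean levels of 5.59 to 6.88 in WT MSC, 5.75 to 6.85 in the libraries labelled KO MSC and 10.30 to 14.87 in tumors. Neutrophil genes fell in 4 of 6 against the libraries labelled KO MSC and 2 of 6 against WT MSC, and erythroid genes in 2 of 6 in both. T lineage genes rose in 2 and 3 of 7, with means of 4.95 to 5.40 in the MSC libraries and 6.30 to 8.06 in tumors. The part of a different mix of cells in the Wnt values was not tested.

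**Figure D3:**
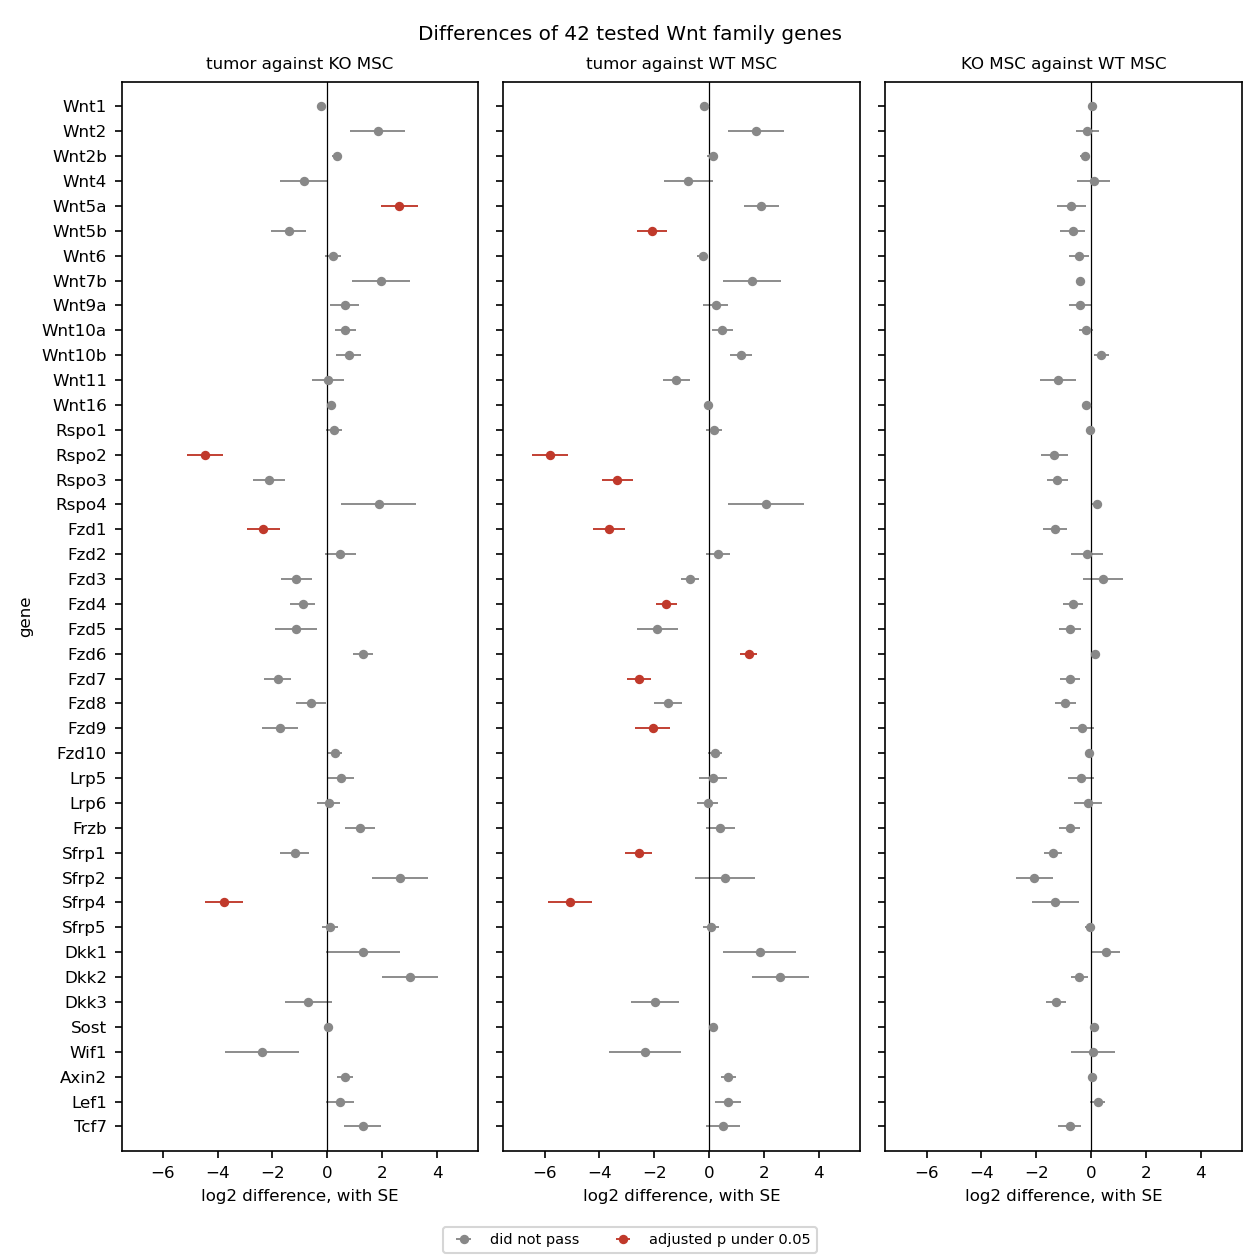
Log2 difference with its SE (horizontal axis) of the 42 tested members (rows, by role) in the 3 comparisons, with members of adjusted p under 0.05 in red. Of the called differences, those of Rspo2 and Sfrp4 lie farthest from 0 in both tumor comparisons, and in the comparison of the libraries labelled KO MSC with WT MSC 31 of the 42 points lie below 0 and none is red.

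None of the feedback and nuclear genes passed. Axin2 was at the floor in all 4 MSC libraries of set 2, at 4.83 in WT_MSC 1 and 4.93 in the library labelled KO_MSC 1, and at 5.39, 6.13, 4.94, 5.69, 6.20 and 5.38 in tumors 1 to 6. Its differences of 0.66 ± 0.29 from the libraries labelled KO MSC (SE, n = 3 and 6; adjusted p = 0.179, limma) and of 0.69 ± 0.27 from WT MSC (adjusted p = 0.0982, limma) did not pass. Axin2 was above its floor in all 6 tumors, in WT_MSC 1 and in the library labelled KO_MSC 1. Those MSC libraries had few genes of any kind at the floor (3736 and 2642). Axin2 was above the floor in none of the 4 MSC libraries of set 2. Within set 1, tumor 3 at 4.94 was level with the library labelled KO_MSC 1 at 4.93. Lef1 had means of 5.30, 5.54 and 6.0 in WT MSC, the libraries labelled KO MSC and tumors, and Tcf7 had 6.58, 5.79 and 7.09.

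Of 70 further pathway genes that were listed by function, 1 rose and 4 fell in tumors against the libraries labelled KO MSC (7.14% of the 70, with 4.98% of all genes), and 2 rose and 18 fell against WT MSC (28.6%, with 21.3% of all genes). Ccnd1, the cyclin D1 gene and a Wnt target in several tissues, rose in both (5.87 ± 0.71, adjusted p = 0.00334, and 5.52 ± 0.71, adjusted p = 0.00133, limma). The junction gene Cldn1 (-4.69 ± 0.69 and -4.62 ± 0.72) and the co-repressor gene Tle2 (-2.72 ± 0.51 and -3.80 ± 0.47) fell in both. Igfbp4, which binds insulin-like growth factors, fell by 4.07 ± 0.87 against the libraries labelled KO MSC, and Dact1, an inhibitor that binds Dishevelled, fell by 3.81 ± 0.38 against WT MSC. By function, 2 of 4 genes of Wnt secretion, 2 of 13 co-receptor and receptor turnover genes, 1 of 14 genes of the destruction complex and its transducers, 4 of 11 other inhibitors, 2 of 9 planar polarity genes and 3 of 12 targets fell against WT MSC. Of 12 nuclear factors 4 fell and 1 rose there.

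Of the 3 libraries labelled KO MSC, only KO_MSC 3 had Trp53 below the WT MSC values by more than 1 unit. Whether KO_MSC 1 and 2 lack p53 is unknown, so the comparison of these libraries with WT MSC is one of labels. No member passed, as no gene did in the whole table (0 of 42 members and 0% of 18948 genes, limma). At an unadjusted p under 0.05 8 members were lower and 0 higher, where 6.07% and 2.57% of all genes were. The groups did not overlap in 12 members, all lower, which is 28.6% of 42, while 8.93% of all genes were lower and 6.31% higher without overlap. These members were Dkk3, Frzb, Fzd1, Fzd4, Fzd5, Fzd7, Fzd8, Rspo2, Rspo3, Sfrp1, Sfrp2 and Wnt7b. Wnt7b was low in both groups, at 5.10 to 5.48 in WT MSC and 4.93 to 4.94 in the libraries labelled KO MSC, 2 of them at the floor. Of the 42 differences 31 were below 0 and 11 above, where 52.4% and 46.9% of all genes were. The median difference of the members was -0.35 and that of all genes -0.01. Sfrp1, whose values stand above, had the smallest p (-1.38 ± 0.34, unadjusted p = 0.0035, adjusted p = 0.551, limma). Dkk3, a Dickkopf relative that does not act on Lrp6 as Dkk1 does, was at 9.92, 10.69 and 10.34 in WT MSC and at 8.82, 9.11 and 9.15 in the libraries labelled KO MSC (-1.29 ± 0.36, adjusted p = 0.551, limma). Sfrp2 differed by -2.07 ± 0.68, Rspo3 by -1.23 ± 0.38, Fzd1 by -1.31 ± 0.44 and Rspo2 by -1.35 ± 0.49, none past the threshold. Of the 70 further pathway genes 13 were lower and 0 higher at an unadjusted p under 0.05, with the smallest p for Tcf7l2 (-1.97 ± 0.37) and Tcf7l1 (-2.09 ± 0.45), which encode TCF factors, and none passed. Stromal identity genes were lower too, 5 of 8 at an unadjusted p under 0.05. Differences were above 0 in 6 of 6 erythroid genes (median 1.02) and 5 of 6 neutrophil genes (median 1.43), none of which passed, and the part of these cells in the Wnt values was not tested.

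Leaving out a library can only keep or raise a count of members without overlap. That count was 12, 16 and 14 lower without KO_MSC 1, 2 and 3, where 18.29%, 12.91% and 11.42% of all genes were, and 2 members were higher without KO_MSC 3, where 13.28% of all genes were. With KO_MSC 3 alone, the library whose Trp53 was low, 19 members were lower than all WT MSC libraries and 2 higher, where 36.34% and 22.69% of all genes were.

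Single tumors differed widely in the antagonists and in a few ligands. Apart from Wnt2, which was high only in tumors of set 2, these differences followed neither group nor library set. Wif1 (chromosome 10, 121033960 to 121100650) was at 10.47, 8.82 and 9.32 in WT MSC and at 8.90, 11.40 and 8.51 in the libraries labelled KO MSC. In tumors 1, 3 and 6 it was at 8.07, 9.68 and 10.66, within or near the MSC range, but in tumor 2 it was at 5.63 and in tumors 4 and 5 at the floor (4.61). Dkk1 (chromosome 19, 30545863 to 30549665), chosen after its values were seen, was at 7.0, 8.76 and 11.45 in tumors 1, 3 and 6 and at the floor in tumors 2, 4 and 5. In the MSCs it was at the floor or within 1 unit of it, except for the library labelled KO_MSC 2 at 6.98. The osteoblast and osteocyte markers, 9 genes with Runx2, Ibsp and Alpl among them, had means of 13.19, 11.06 and 11.03 in tumors 1, 3 and 6 and of 6.57, 7.07 and 7.78 in tumors 2, 4 and 5. Tumors 4 and 5 had Sp7 and Mepe of that list at the floor. Fzd9 was at 7.77, 7.60 and 7.16 and Fzd5 at 9.54, 8.13 and 7.94 in tumors 1, 3 and 6, and at 5.83, 5.27 and 5.29 and at 6.64, 5.66 and 6.21 in tumors 2, 4 and 5.

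Other genes were high in the tumors where those were low. Dkk2 (chromosome 3, 132085292 to 132180304), a Dickkopf that can inhibit or weakly activate the pathway depending on the cell, was at 6.93, 10.29, 6.03, 9.38, 10.57 and 6.29 in tumors 1 to 6. In WT MSC it was at 5.04, 5.98 and 5.97 and in the libraries labelled KO MSC at 5.12, 5.29 and 5.29, all below the tumors. Its differences of 3.02 ± 1.02 from the libraries labelled KO MSC (SE, n = 3 and 6; adjusted p = 0.105, limma) and of 2.59 ± 1.04 from WT MSC (adjusted p = 0.102, limma) did not pass. Rspo4 (chromosome 2, 151842927 to 151874668) and Wnt7b (chromosome 15, 85535437 to 85582473), both chosen after their values were seen, had the same high tumors. Rspo4 was at 11.15, 9.57 and 7.41 in tumors 2, 4 and 5 and at the floor in tumors 1, 3 and 6. Wnt7b was at 9.13, 9.50 and 7.58 in tumors 2, 4 and 5, at 5.67 in tumor 1 and at the floor in tumors 3 and 6, and it shares 6.61% of its exon bases with an antisense gene. Wnt2, also chosen so, was at 10.35 in tumor 5 and 7.51 in tumor 4, both of set 2, and at most 5.69 elsewhere. Dkk3 was at 9.11, 8.96, 8.22, 10.64, 5.46 and 7.63 in tumors 1 to 6, with tumor 5 lowest. With only single tumors to compare, no test was made, and the part of osteoblasts in these values was not tested.

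**Figure D4:**
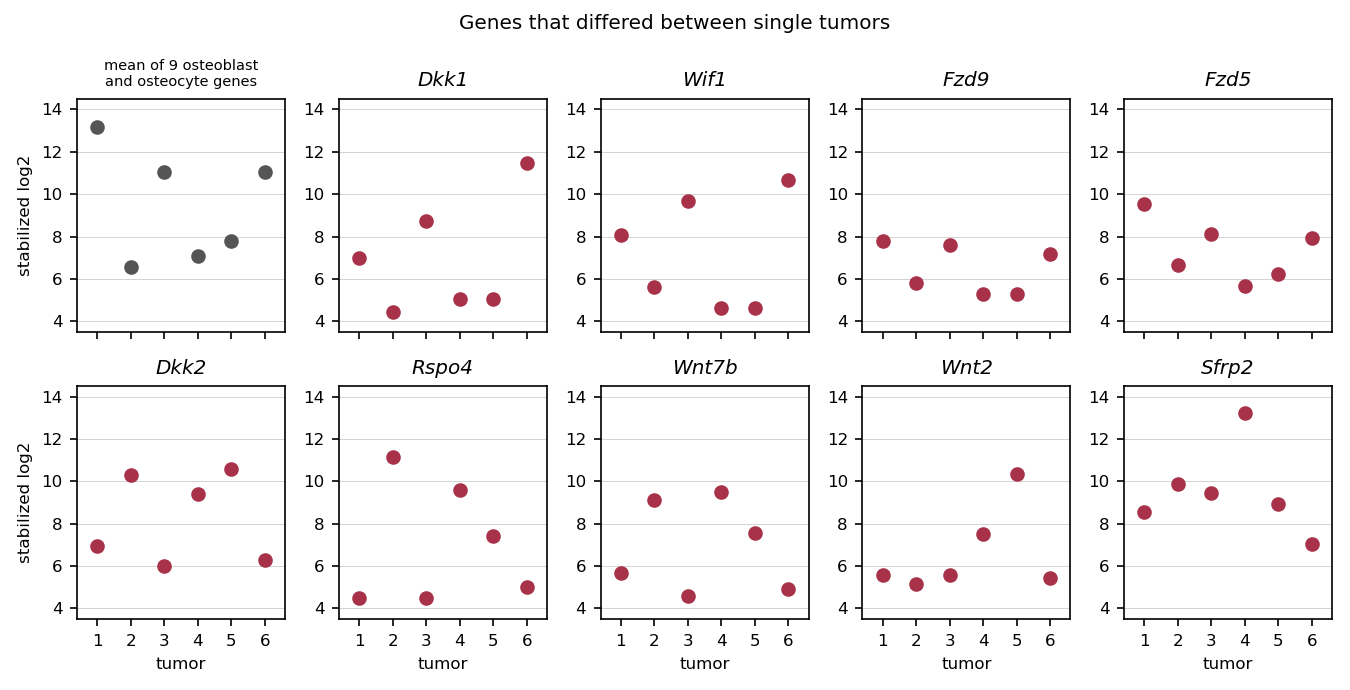
Stabilized log2 values (vertical axis) in tumors 1 to 6 (horizontal axis) of the mean of 9 osteoblast and osteocyte genes (grey) and of 9 Wnt family genes (red). Dkk1, Wif1, Fzd9 and Fzd5 are higher in tumors 1, 3 and 6, and Dkk2, Rspo4 and Wnt7b are higher in tumors 2, 4 and 5.

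The sequences just before the start sites of 2 genes of each of these patterns are shown, since members that move together invite a look at shared motifs. They come from RefSeq (build GRCm38.p6), run 5′ to 3′ from 250 bases before the start on the gene's strand, and stop where the GENCODE transcript begins. Capitals mark the letters CTTTGA, the core bound by TCF and LEF factors, or TGTGGT, the core bound by RUNX factors, on either strand (reverse TCAAAG and ACCACA). The last capitals of Dkk1 begin a TCAAAG that runs past the printed stretch.
Dkk1, chr19:30549666-30549746, minus strand: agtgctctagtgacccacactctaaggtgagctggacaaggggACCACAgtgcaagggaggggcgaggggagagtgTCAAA
Wif1, chr10:121033754-121033959, plus strand: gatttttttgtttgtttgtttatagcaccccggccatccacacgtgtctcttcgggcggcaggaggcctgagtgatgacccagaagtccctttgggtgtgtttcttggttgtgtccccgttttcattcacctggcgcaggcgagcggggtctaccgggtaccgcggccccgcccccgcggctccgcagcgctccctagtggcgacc
Dkk2, chr3:132085042-132085291, plus strand: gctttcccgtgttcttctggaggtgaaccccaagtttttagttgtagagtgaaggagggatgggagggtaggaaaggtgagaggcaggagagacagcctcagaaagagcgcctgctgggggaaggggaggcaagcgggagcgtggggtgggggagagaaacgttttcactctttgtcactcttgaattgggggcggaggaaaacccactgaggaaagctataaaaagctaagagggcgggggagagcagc
Rspo4, chr2:151842677-151842926, plus strand: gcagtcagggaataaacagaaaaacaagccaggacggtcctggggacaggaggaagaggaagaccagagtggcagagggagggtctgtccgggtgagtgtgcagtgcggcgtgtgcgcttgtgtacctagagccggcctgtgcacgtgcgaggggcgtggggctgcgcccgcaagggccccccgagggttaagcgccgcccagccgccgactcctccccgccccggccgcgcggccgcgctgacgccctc
In the full window of 250 bases, Dkk1 had 2 matches to CTTTGA and 1 to TGTGGT, and the windows of Wif1, Dkk2 and Rspo4 had 0 of either. Over the 40 such windows of the 33 members that matched the table, 15.0% held CTTTGA and 5.0% TGTGGT, against 13.8% and 14.05% of all 32851 windows, so the share with the TCF and LEF core was near that of all promoters. A match describes letters only.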

How the data were processed

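Bulk RNA-seq of 12 mouse libraries was read from 2 tables. The submitters' processing notes name the build mm10 with TopHat2 (2.0.13), Cuffdiff and Cufflinks (2.2.1), and no further steps. The log2 values analysed are those the authors deposited as variance-stabilized and batch-adjusted. The authors' other deposited table holds a score, which is the same value times 100, rounded, over a factor for each library (true of 100% of 18949 genes). Reads could not be recovered, so depth and counting error are unknown. Floors of the 2 library sets lay symmetrically about 4.75 in 100% of 9803 genes (tolerance 1e-05).

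Groups were taken from the sample titles. limma 3.58.1 (R 4.3.3; trend, two-sided, no covariates) was fitted separately for the groups of each comparison over the 18948 varying genes of both tables, with Benjamini-Hochberg adjustment. Since the authors had already adjusted for batch, these p-values may be too low. The fit was tested on simulated data. Members, lists and tests were chosen with earlier results of these data known. Members that passed or had a group mean of at least 8 are given with their value in each MSC library and, for the 6 tumors, each value or the lowest, median and highest. Of the listed pathway genes, at most 4 with the smallest adjusted p are named for each comparison. Levels are not compared between genes, since lengths may not be accounted for. Positions are from GENCODE M21 (GRCm38, the same build as mm10).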

Additional observations from a re-analysis of the deposited data

Results flagged for a closer look

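Of 17 members examined for a tumor far from the other 5, Fzd8 stood out: tumor 1 was at 8.41, while the other tumors lay between 6.0 and 6.45. Its gap to the next tumor was 0.814 of the whole range, above the critical value of 0.625 for 6 samples. Chance marks about 1 in 20 such groups, so 1 of 17 is no excess.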

How the results depend on the processing

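No member with an unadjusted p under 0.05 in a comparison changed direction there under any alternative run. In tumors against the libraries labelled KO MSC, the 4 members called became 2 with the larger library set only and with no filter, 7 with a minimum mean of 6 and with 1 fit over 12 libraries, 11 with library weights, 0 with the replicate block and 0 without the libraries labelled KO_MSC 1 and 2 (an alternative chosen after seeing the data, which leaves 1 library in its group and assumes that it varies like the tumors). Leaving out single libraries gave 1 to 4: 1 without the library labelled KO_MSC 1 or KO_MSC 2, and 2 without tumor 2, 5 or 6. Over all genes, the 944 calls became 113 without KO_MSC 1, 396 without KO_MSC 2, 1627 without KO_MSC 3 and 34 with the replicate block. In tumors against WT MSC, the 10 members called became 6 with the larger library set only and 6 with the replicate block, and 6 to 13 without single libraries, with 6 without WT_MSC 1. The member median there was -0.69 with a minimum mean of 6. Of KO MSC against WT MSC, 10 members were called with library weights. The share of all genes called is not given here for library weights, a minimum mean of 6 or 1 fit over 12 libraries. Counts in those settings are therefore no result about the members. With quantile normalization the calls were 0 higher and 3 lower, and 3 higher and 8 lower, in the tumor comparisons (1 and 3, and 1 and 9 as reported), and with median centring 2 and 3, and 3 and 8. Median centring moved the median of all genes from -0.06 to 0.05 against WT MSC. The cause of these changes was not tested, apart from the fewer libraries or genes that some settings use. Deviations of same-numbered libraries from their group means correlated at -0.32 to 0.24. With so few libraries in a group, this cannot decide whether replicate numbers pair the libraries. Rspo2, Rspo3, Fzd1, Fzd7 and Sfrp4 passed against WT MSC in all 19 alternatives run, and Sfrp1 in 18. Fzd4, Fzd6, Fzd9 and Wnt5b passed there neither with the larger library set only nor with the replicate block.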

Other observations

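Other pathway genes, chosen after their values were seen, also differed between single tumors. Lgr4, a receptor for R-spondins, was at 8.51, 7.61 and 7.49 in tumors 1, 3 and 6 and at 6.10, 5.66 and 5.64 in tumors 2, 4 and 5, against 8.18 to 8.66 in WT MSC. Ctnnb1, which encodes beta-catenin, was at 13.46 in tumor 1 and 12.98 in tumor 6, and between 9.62 and 11.92 in the other 10 libraries. Wisp1, a matricellular gene known as a Wnt target, was at 11.88, 7.87, 10.57, 12.03, 7.28 and 13.24 in tumors 1 to 6 and between 5.57 and 8.78 in the MSC libraries. Wls, which carries Wnt ligands to the cell surface, stayed between 10.20 and 11.82 in all 12 libraries.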
